A study of Mus musculus with 12 samples.

Results

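The beta-defensin family was taken as every gene in the mouse testis expression table whose symbol is Defb followed by a number, which gave 33 of 20788 genes. A gene was called detected when its RPKM, reads scaled by gene length and by library depth, was 0.5 or more in at least 3 libraries. By this rule 18 of the 33 genes were detected and 15 were not. Defb39 was just inside, with an RPKM of 0.56, 2.94 and 1.81 in its 3 libraries above the limit, and Defb1, Defb2 and Defb42 were just outside, with 2 libraries each. The 12 libraries came from testes of 8-week-old F1 male mice in 4 groups of 3. The strain is spelled IRC in the sample labels and ICR in the study. The lncRNA5251 knockdown group (F1_5251KD in the sample titles) descended from males whose testes received, at 4 weeks of age, a lentivirus with 3 hairpins targeting the long non-coding RNA lncRNA5251. The lncRNA5251 overexpression group (F1_5251OV) descended from males given a lentivirus that overexpresses it. The 3NC group is the virus control of the knockdown group, and the 5NC group that of the overexpression group. The design text of the series instead describes the F1 testes as transfected. The virus is not stated to act in one cell type, and the level of lncRNA5251 in these libraries was not analysed here. Whether the 3 libraries per group are from different animals is not in the labels, and the p-values then reflect only the spread among these libraries, which may be technical.

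Beta-defensins are small, positively charged secreted peptides held together by disulfide bonds, best known for killing microbes at epithelial surfaces. In the male tract many of them are made by the epithelium of the epididymis, the duct that receives sperm from the testis, where they coat sperm and take part in sperm maturation and motility. Others are made in the testis itself. Their genes sit in clusters that arose by repeated duplication. Members with similar sequences could share reads, and the sources used here do not say how such reads were divided.

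The 33 genes lay in 6 groups on the mouse genome when neighbours less than 500000 bases apart were joined (build GRCm38.p6, which is the same assembly as the mm10 of the labels). The group on chromosome 2, chr2:152459055-152623053, held 11 members, of which 8 were detected. On chromosome 8, chr8:18974914-19228209 held 7 members with 5 detected, chr8:20892667-20897723 held Defb33 alone, and chr8:21776555-21940878 held 7 members with 1 detected. Chromosome 14, chr14:62977524-63048606, held 5 members with 2 detected, and chromosome 1, chr1:18236402-18265138, held 2 with 1 detected.

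The detected members had different profiles across libraries. Of the 18, 8 had an RPKM of 0.5 or more in all 12 libraries and are called evenly present here, and 10 fell below 0.5 in at least 1 library and are called unevenly present. These names were given after the values were seen and carry no test. On chromosome 2 the profiles followed position. Defb23, Defb20, Defb22, Defb26, Defb28 and Defb29 lie next to each other, and none of these 6 was evenly present. The next 4 genes, Defb21, Defb19, Defb45 and Defb36, were all evenly present, and Defb25 beyond them was not detected.

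**Figure D1:**
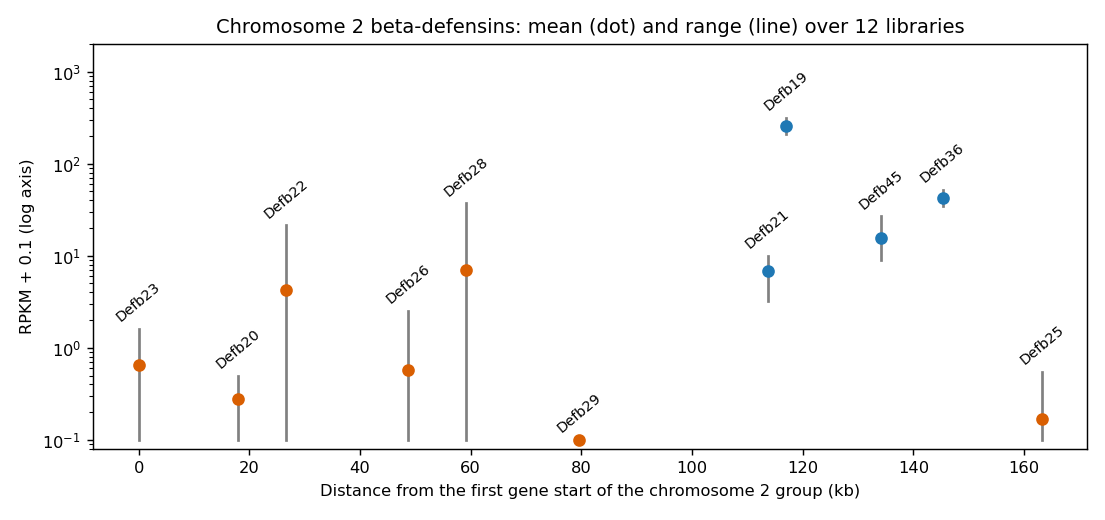
RPKM plus 0.1 on a log axis for the 11 beta-defensins of chromosome 2 against distance in kb from the first gene start, with dots for the mean and lines for the range over 12 libraries. Blue dots mark the 4 genes at 0.5 or more in every library, which are neighbours, and orange dots mark the others, of which Defb22 ranges from 0 to 21.5 and Defb28 from 0 to 36.9.

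Because members next to each other on chromosome 2 had such different profiles, 4 of their promoters are shown. Each runs over the 250 bases before the gene start, 5′ to 3′ on the strand of the gene, from RefSeq on GRCm38.p6. Defb22 and Defb28 are unevenly present and reached the highest levels of that kind, Defb26 is their neighbour, and Defb36 is evenly present. Capitals mark TGTTCT on either strand, the repeated core of the androgen receptor's DNA element.
Defb22, chr2:152490139-152490388, minus strand: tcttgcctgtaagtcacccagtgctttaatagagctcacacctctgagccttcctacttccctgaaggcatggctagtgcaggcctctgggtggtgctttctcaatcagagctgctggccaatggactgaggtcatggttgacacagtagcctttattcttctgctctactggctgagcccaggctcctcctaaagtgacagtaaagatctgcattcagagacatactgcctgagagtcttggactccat
Defb28, chr2:152518005-152518254, plus strand: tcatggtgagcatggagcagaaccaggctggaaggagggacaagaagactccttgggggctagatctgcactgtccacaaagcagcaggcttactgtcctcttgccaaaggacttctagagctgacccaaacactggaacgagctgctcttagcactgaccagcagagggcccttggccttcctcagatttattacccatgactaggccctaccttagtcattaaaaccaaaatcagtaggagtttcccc
Defb26, chr2:152511737-152511986, minus strand: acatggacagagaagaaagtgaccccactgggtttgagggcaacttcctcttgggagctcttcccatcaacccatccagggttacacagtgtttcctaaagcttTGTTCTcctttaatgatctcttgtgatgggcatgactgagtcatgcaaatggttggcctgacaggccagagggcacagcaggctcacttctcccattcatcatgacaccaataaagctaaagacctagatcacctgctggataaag
Defb36, chr2:152604077-152604326, plus strand: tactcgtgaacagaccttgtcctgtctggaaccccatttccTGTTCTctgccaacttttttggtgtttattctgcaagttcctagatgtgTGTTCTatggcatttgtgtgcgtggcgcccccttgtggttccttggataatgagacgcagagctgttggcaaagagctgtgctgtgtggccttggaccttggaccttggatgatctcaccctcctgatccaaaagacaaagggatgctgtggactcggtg

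TGTTCT occurred once in the Defb26 window and at 2 places in that of Defb36, and neither the Defb22 nor the Defb28 window held it. Windows were at hand for 23 of the 33 members and were not used here for the other 10, among them Defb19, Defb14 and Defb37. In these windows TGTTCT was found for 3 evenly present members (Defb41, Defb36 and Defb30, among 7 windows of 6 genes) and 4 unevenly present ones (Defb23, Defb26, Defb11 and Defb43, of 8). The motif was also found for the undetected members Defb10, Defb15, Defb48 and Defb47, so it did not set the detected members apart. It was present in 16.1% of 32851 promoter windows of the same length. TATAAA, the TATA box core, was found for Defb30 and Defb23 only among the detected members with a window, and in 12.4% of all windows. Both strands were searched, no match of one motif overlapped a match of the other in the windows that held both, and a match is a description of the letters only.

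**Figure D2:**
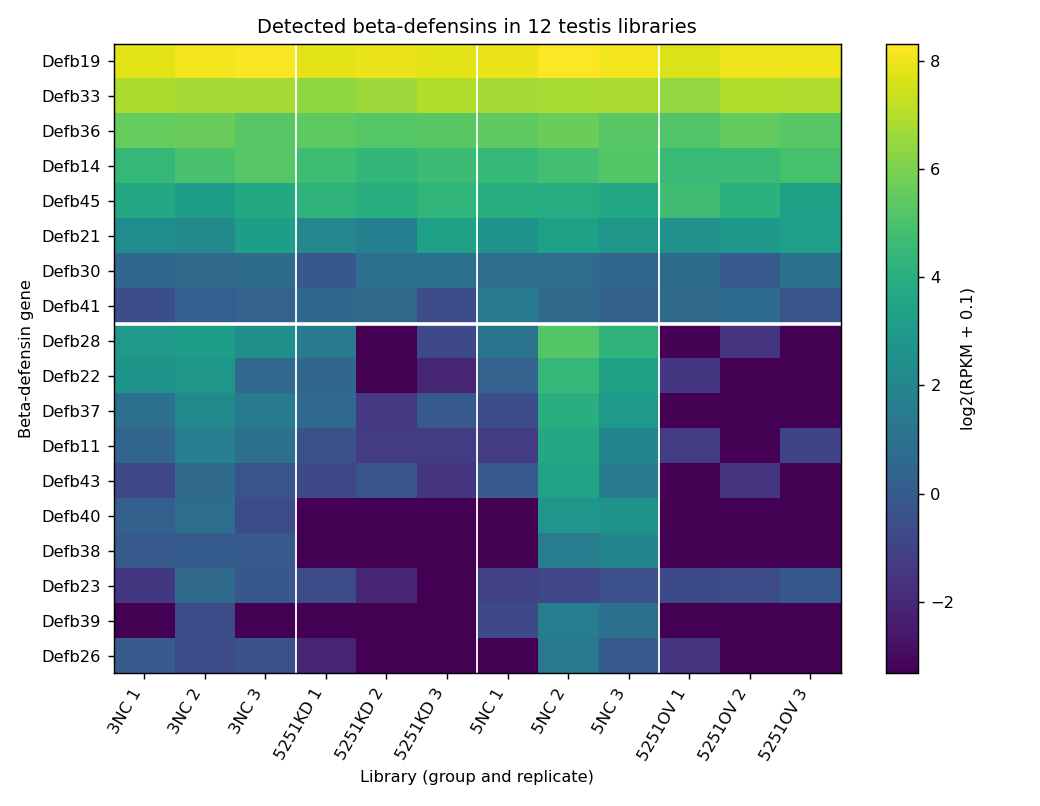
Colour shows log2(RPKM + 0.1) of the 18 detected beta-defensins (rows) in 12 libraries (columns, by group and replicate). The 8 rows above the white line are at an RPKM of 0.5 or more in every library, of which Defb41 varies from 0.58 to 2.61, and 8 of the 10 rows below it are brightest in 5NC replicate 2, with Defb38, Defb39 and Defb40 at 0 in all knockdown and overexpression libraries.

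The evenly present members made up most of the beta-defensin RNA. Defb19, first described as a testis beta-defensin-like gene, was the most abundant at a mean RPKM of 257.8 ± 31.4 (SD, n = 12), which ranked 365 among all genes. Its RPKM was 229.5, 272.5 and 301.5 in 3NC, 230.3, 250.9 and 230.8 in the knockdown group, 254.1, 317.4 and 277.4 in 5NC, and 208.8, 260.4 and 259.7 in the overexpression group. The highest library was 1.52 times the lowest.

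Defb33 came next at a mean RPKM of 108.1 ± 13.7 (SD, n = 12), with 106.2 to 114.1 in 5NC, 107.5 to 116.7 in 3NC, 82.6 to 124.2 in the knockdown group and 85.8 to 124.3 in the overexpression group. The virus controls had a narrow range that lay inside that of each modified group. Defb36 had a mean RPKM of 42.5 ± 5.24 with its lowest value, 34.9, in overexpression replicate 1 and its highest, 52.2, in 5NC replicate 2. Defb14, the mouse counterpart of human beta-defensin 3 and a ligand of the chemokine receptor CCR6, had a mean RPKM of 27.5 ± 5.90, from 20.9 in knockdown replicate 2 to 39.2 in 3NC replicate 3. The gene length implied by its reads and its RPKM went from 570 to 973 bases between libraries, so its RPKM was not set on 1 common length.

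Defb45 had an RPKM of 13.0, 8.97 and 13.3 in 3NC, 18.7, 16.0 and 19.3 in the knockdown group, 16.1, 14.8 and 12.7 in 5NC, and 26.7, 17.4 and 9.70 in the overexpression group. The overexpression libraries held both a higher and a lower value than any 5NC library. Defb21 had a mean RPKM of 6.72 ± 2.32 and ranged from 3.16 to 9.85, both of them in knockdown libraries. Defb30 had a mean of 1.51 ± 0.340. Defb41, known from the epididymal epithelium, had a mean of 1.28 ± 0.558 on 74 reads in all. Its implied gene length went from 210 to 341 bases between libraries, so its RPKM, like that of Defb14, was not set on 1 common length.

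Among the 8 evenly present members in order of mean RPKM, the ranges over 12 libraries did not overlap between Defb19 and Defb33, between Defb33 and Defb36, and between Defb21 and Defb30. The ranges of the other neighbours overlapped. Defb36 was above Defb14 in 11 of 12 libraries, Defb14 above Defb45 in 11, Defb45 above Defb21 in 12, and Defb30 above Defb41 in 9. Among all detected members, Defb28 (mean RPKM 6.97) came just before Defb21, and Defb22, Defb37, Defb11 and Defb43 came between Defb21 and Defb30. Without strand information a gene cannot be told from one that overlaps it, and RefSeq places Gm14163 and Gm31618 over Defb36, Gm39139 over Defb14, Gm17837 over Defb41 and Gm39138 over Defb37.

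**Figure D3:**
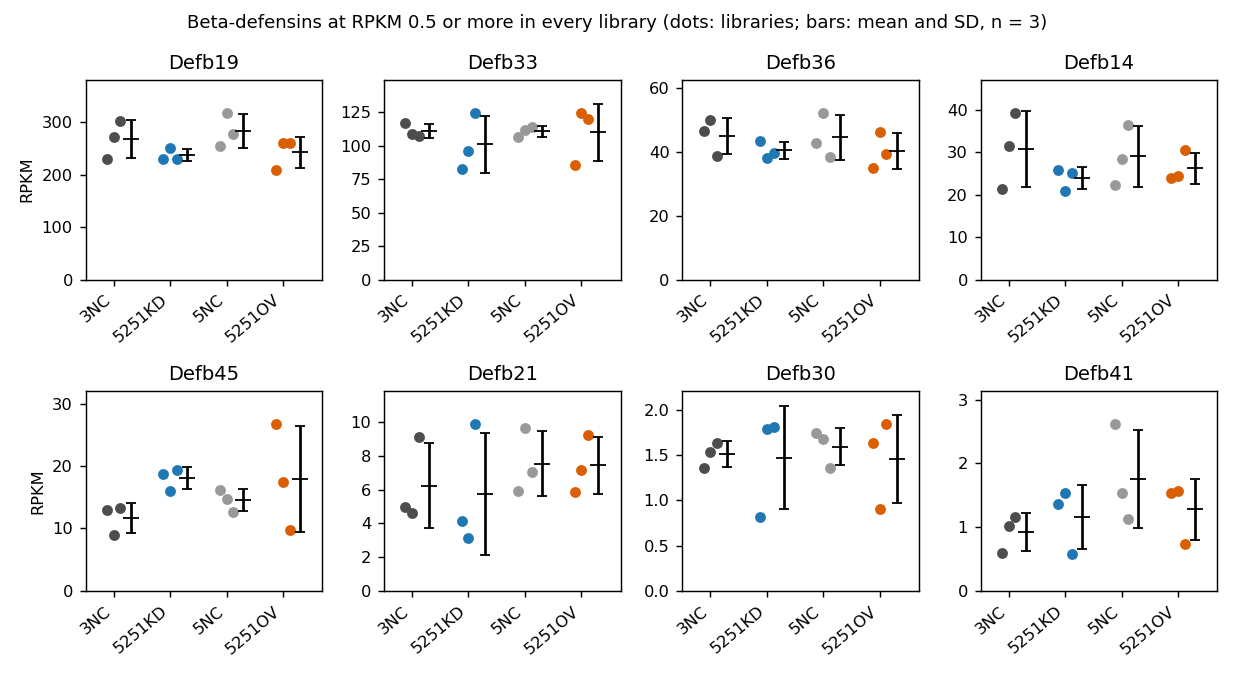
RPKM (y axis from 0) by group for the 8 beta-defensins present at 0.5 or more in every library, with dots for libraries and bars for the mean and SD of 3. Defb19 stays between 208.8 and 317.4, and Defb45 ranges from 8.97 to 26.7.

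The genes whose log2 CPM (read counts relative to library depth, scaled by TMM) followed that of Defb19 most closely over the 12 libraries were Dctn6 (Pearson r = 0.899), Zbed5 (0.891), Spata22 (0.888), Shc4 (0.879) and Gtf2a2 (0.874), out of 16378 genes compared. Dctn6 encodes a dynactin subunit, Spata22 a protein needed for meiosis and Gtf2a2 a general transcription factor subunit. The 12 points share 4 groups and their library depth, so these values are a description.

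The unevenly present members were led by Defb28 and Defb22. Defb28 had an RPKM of 7.76, 9.18 and 5.43 in 3NC, 2.72, 0 and 0.49 in the knockdown group, 2.13, 36.9 and 18.8 in 5NC, and 0, 0.25 and 0 in the overexpression group. Its highest library was 5NC replicate 2, every overexpression value lay below every 5NC value, and every knockdown value lay below every 3NC value. Defb22, the mouse relative of a defensin of the sperm surface coat, had 6.43, 7.02 and 1.45 in 3NC, 1.32, 0 and 0.13 in the knockdown group, 1.15, 21.5 and 9.97 in 5NC, and 0.26, 0 and 0 in the overexpression group. It was again highest in 5NC replicate 2, and the groups were separated in the same way.

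The 5NC libraries were far apart for these genes. Defb37 had 1.81, 4.44 and 2.67 in 3NC, 1.49, 0.29 and 0.88 in the knockdown group, 0.57, 16.2 and 7.55 in 5NC, and no read in any overexpression library. Defb37 and its neighbours Defb38, Defb39 and Defb40 on chromosome 8 are known from the epididymis. Defb40 had 1.07, 1.73 and 0.53 in 3NC, 0, 6.61 and 6.15 in 5NC, and 0 reads in each of the 3 knockdown and 3 overexpression libraries. Defb38, with 10 reads in all, and Defb39, also with 10, were likewise at 0 in all 6 of those libraries.

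Defb11, an epididymal member on chromosome 8, had an RPKM of 1.28, 3.03 and 1.89 in 3NC, 0.63, 0.31 and 0.31 in the knockdown group, 0.30, 12.9 and 4.01 in 5NC, and 0.31, 0 and 0.40 in the overexpression group. Defb43 on chromosome 14 had 0.48, 1.51 and 0.71 in 3NC, 0.48, 0.70 and 0.24 in the knockdown group, 0.91, 10.7 and 2.73 in 5NC, and 0, 0.24 and 0 in the overexpression group. In both, 5NC replicate 1 lay within or below the range of 3NC and 5NC replicate 2 lay far above every other library. Defb26 had 42 reads in all, of which 17 were in 5NC replicate 2. Defb23, a neighbour of Defb22, was the exception: it was highest in 3NC replicate 2 at 1.52, was 0.38 to 0.61 in 5NC and was 0.52 to 0.82 in the overexpression group.

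Of the 10 unevenly present members, 8 were highest in 5NC replicate 2, and Defb38 was highest in 5NC replicate 3. Their summed CPM was 4.32 to 8.39 in 3NC, 0.399 to 2.21 in the knockdown group, 1.81 to 30.9 in 5NC and 0.400 to 0.592 in the overexpression group. The sum over the 8 evenly present members lay between 120.0 and 160.8 CPM in all libraries. The unevenly present members took 16.4% of the reads of the 33 genes in 5NC replicate 2 (95% exact binomial interval 15.0% to 17.9%), 9.29% in replicate 3 (8.10% to 10.6%) and 1.29% in replicate 1 (0.866% to 1.85%), and between 0.267% and 0.472% in the overexpression libraries. Intervals cover counting error only. The unevenly present members were picked by these same values, so shares that differ between libraries are built in and test nothing.

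The 15 members that were not detected had few reads. Defb18, Defb29, Defb12, Defb6 and Defb10 had 0 reads in all 12 libraries, which allows up to 0.0168 CPM by a limit of 3 of 178818804 reads. Defb35 had 1 read and Defb25 had 2. Defb1, the defensin that many epithelia make constantly, had 38 reads over 8 libraries, of which 12 were in 5NC replicate 2 and 9 in replicate 3. Defb9 had 13 reads, 10 of them in 5NC replicate 2, and Defb2, an inducible defensin of the airway, had 16, of which 9 were there. The others, Defb15, Defb48, Defb47, Defb20 and Defb42, had 5 to 30 reads. The number of members with at least 1 read was 21 to 25 in 3NC, 14 to 20 in the knockdown group, 22 to 26 in 5NC and 12 to 15 in the overexpression group.

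Group differences were tested with edgeR's quasi-likelihood test in 1 fit of all 12 libraries, with adjustment over 16388 genes. Of the 33 members, 10 had enough reads to be tested, all of them detected, and 23 did not. Passing this filter depends on the group in which a gene is high, so counts over the 10 do not stand for the family. Each comparison below asks whether altering lncRNA5251 in the father was followed by a different level in the testis of the offspring, and 5NC against 3NC compares both virus controls.

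In overexpression against 5NC, no tested member passed an adjusted p of 0.05, where 0.311% of all tested genes did. Defb28, Defb22 and Defb37 had the smallest p-values, all towards lower levels in the overexpression group. Defb28 had 1 read in the overexpression group and 207 in 5NC, and its log2 fold change was -7.26 ± 1.40 (SE, edgeR adjusted p = 0.0676, unadjusted p = 0.000277). Relative to library depth, its 5NC level was 207.4 times the overexpression level, with a 95% exact interval from 36.8 to 8232. This interval, and those of Defb22 and Defb37 below, pool the reads of a group and cover counting error only. They leave out the spread among libraries, which was wide: the 5NC libraries held 9, 132 and 66 of the 207 reads. Defb22 had 2 reads against 219, and its log2 fold change was -6.55 ± 1.46 (edgeR adjusted p = 0.0988). Its 5NC level was 109.7 times the overexpression level, with an exact interval from 30.0 to 911.8. Defb37 had 0 reads against 72, which is at least 24.1-fold lower by a limit of 3 reads over the group and 19.1-fold by the lower end of the 95% exact interval, and an edgeR adjusted p of 0.109. An unadjusted p under 0.05 with a lower level was found for these 3 of 10 members, and for 4.85% of all tested genes. The 3 libraries of the overexpression group were all below the 3 of 5NC for the same 3 members, and for 10.03% of all tested genes.

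These calls turned on the tool and on single libraries. DESeq2 called all 3 members lower, with adjusted p-values of 0.000179 for Defb28, 0.00111 for Defb22 and 0.00129 for Defb37, where it called 0.727% of all genes lower. The limma-trend test on log2(RPKM + 0.1) called Defb37 and Defb43 lower, and 0.527% of all genes in either direction. Without 5NC replicate 1, the low library of its group, edgeR called 4 of 14 tested members, namely Defb28, Defb37, Defb11 and Defb43, and 0.293% of 16733 genes. Defb11 and Defb43 were not among the 10 and had 10 or more reads in 5NC replicates 2 and 3 only, so they entered that fit through the group in which they are high, and their calls support nothing about the family. Without 5NC replicates 2 and 3, which leaves a single 5NC library whose spread is assumed to be that of the other groups, the log2 fold changes of Defb28, Defb37 and Defb22 were -4.18, -4.00 and -3.39, with edgeR unadjusted p-values of 0.0231, 0.0442 and 0.0773 and adjusted p-values of 0.928, 0.928 and 0.944. With single libraries left out, that of Defb28 went from -6.38 (without 5NC replicate 2) to -9.17 (without overexpression replicate 2), that of Defb22 from -5.59 (without 5NC replicate 2) to -9.25 (without overexpression replicate 1), and that of Defb37 from -6.66 (without 5NC replicate 2) to -8.20 (without 5NC replicate 1). The values of -9.17 and -9.25, and all those of Defb37, compare with a group at 0 reads, so they depend on the prior count of the fit and are no bounds. The ratios of reads moved as well. That of Defb28, 5NC over overexpression, was 110.5 when 5NC replicate 2 was left out, 312 when 5NC replicate 1 was and 133 when overexpression replicate 1 was, and without overexpression replicate 2 it was at least 44.9 by the limit of 3 reads. That of Defb22 was 55.2 when 5NC replicate 2 was left out, 165 when 5NC replicate 1 was and 71.3 when overexpression replicate 2 was, and without overexpression replicate 1 it was at least 47.0. The limit for Defb37, of whose 72 reads 48 were in 5NC replicate 2, fell to 11.8-fold without that library, was 15.5-fold and 15.6-fold without overexpression replicates 1 and 2, and was 36.8-fold without 5NC replicate 1.

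In knockdown against 3NC, no member and 0% of all genes passed (0 of 16388, of which 3.08% had an unadjusted p under 0.05 towards lower levels). Of the 10 tested members, 2 had an unadjusted p under 0.05, both towards lower levels, and DESeq2 called 16 genes and no member. Without knockdown replicate 3, 0 of 14 members had an unadjusted p under 0.05 by edgeR, as had 613 of 16750 genes. Defb22 was then at an edgeR unadjusted p of 0.0553 and Defb28 at 0.0651. The count was 1 of 14 without knockdown replicate 2 (483 of 16746 genes) and 3 of 14 without knockdown replicate 1 (1241 of 16559 genes). The 3 members with the smallest p were Defb22, Defb28 and Defb45. Defb22 had 11 reads in the knockdown group and 110 in 3NC, and its log2 fold change was -3.27 ± 1.16 (SE, edgeR adjusted p = 0.764, unadjusted p = 0.0165). Defb28 had 13 against 88 reads, and its log2 fold change was -2.72 ± 1.01 (edgeR adjusted p = 0.764, unadjusted p = 0.0207). Defb45 had 213 against 135 reads, and its log2 fold change was 0.66 ± 0.34 (edgeR adjusted p = 0.764, unadjusted p = 0.0789). Defb28, Defb22 and Defb37 had all 3 knockdown libraries below all 3 3NC libraries, as had 6.36% of all tested genes.

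In 5NC against 3NC, no member passed, where 0.128% of all genes did. None of the 10 had an unadjusted p under 0.05 by edgeR, where 10.76% of all genes had, and DESeq2 called no member. This comparison shares 5NC with the one and 3NC with the other, so its values are set beside theirs without a count of agreement. Defb37, Defb28 and Defb22 again had the smallest p, with log2 fold changes of 1.41 ± 0.84, 1.34 ± 0.83 and 1.11 ± 0.93 (SE) towards higher levels in 5NC and edgeR unadjusted p-values of 0.128, 0.135 and 0.255. Without 5NC replicates 2 and 3 these values were -2.26, -1.75 and -2.07, so the direction rested on those libraries. Without 5NC replicate 2 alone they were 0.40, 0.45 and 0.14. Without 5NC replicate 1 alone, Defb37 was at 1.96 and Defb28 at 1.87, and 5 of 14 tested members (these and Defb43, Defb11 and Defb40) had an unadjusted p under 0.05 by edgeR, as had 9.22% of all genes in that fit, but none passed adjustment. Defb43, Defb11 and Defb40 had 10 or more reads in 5NC replicates 2 and 3 only, so a higher level in 5NC was built into their entering that fit. The difference between the knockdown and the overexpression effect passed for no member, where 0.0244% of all genes passed. By edgeR 2 of 10 members had an unadjusted p under 0.05, as had 4.63% of all genes, and DESeq2 called none. The knockdown effect minus the overexpression effect was 6.02 ± 2.30 on the log2 scale for Defb37, 4.54 ± 1.97 for Defb28 and 3.28 ± 2.09 for Defb22, with an edgeR adjusted p of 0.9999 for each. Defb37 had no read in the overexpression group, so its value depends on the prior count of the fit.

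The other 7 tested members, Defb19, Defb33, Defb36, Defb14, Defb45, Defb21 and Defb30, had small fold changes. That of Defb19 was -0.12 ± 0.13 in knockdown against 3NC, -0.17 ± 0.13 in overexpression against 5NC and 0.06 ± 0.13 in 5NC against 3NC, with edgeR adjusted p-values of 0.806, 0.677 and 0.901. Apart from Defb45 at 0.66 in the knockdown group and 0.37 in the overexpression group, the log2 fold changes of these members in the comparisons with the virus controls lay between -0.17 and 0.04.

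**Figure D4:**
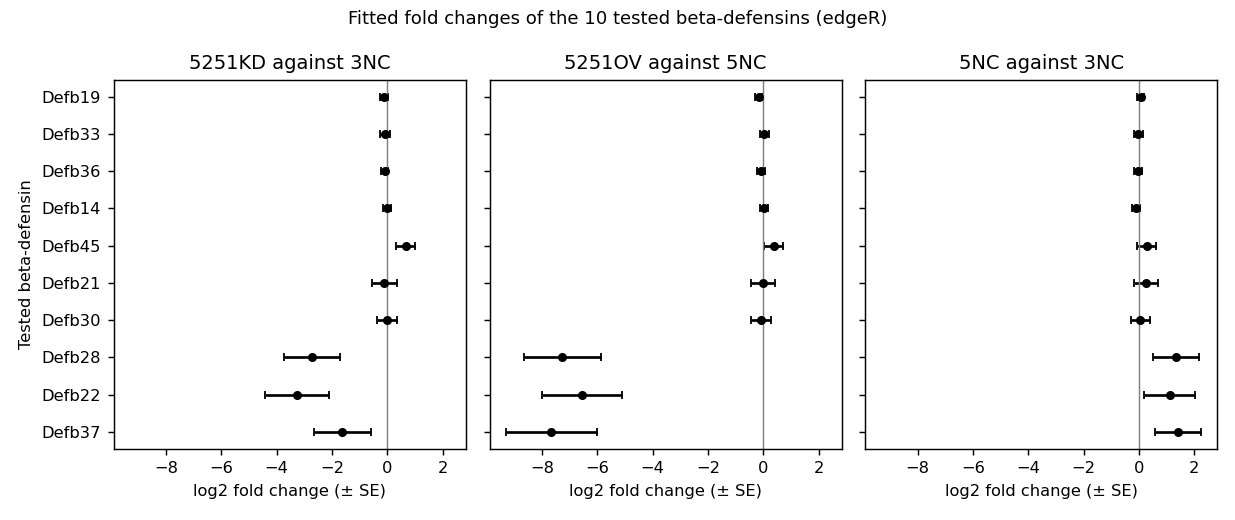
Log2 fold change (x axis) with SE for the 10 tested beta-defensins (rows) in 3 comparisons, from edgeR. The 7 upper rows lie between -0.17 and 0.66 in the left and middle panels, and Defb28, Defb22 and Defb37 lie at -6.55 to -7.65 in overexpression against 5NC with long error bars.

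Some genes known from the epididymis were highest in the same library as most unevenly present members, and others were not. Crisp1, an epididymal sperm-coating protein, had 32.5, 61.5 and 26.3 CPM in 3NC, 13.2, 0.0665 and 0.608 in the knockdown group, 9.86, 239.2 and 98.4 in 5NC, and 0.197, 0.133 and 0.0793 in the overexpression group. Like Defb28, it was highest in 5NC replicate 2, and every overexpression library lay below every 5NC library. Adam7, an epididymal membrane protein of sperm, had 26.1 CPM in 5NC replicate 2 and at most 0.159 in the overexpression group, and Spink8, a protease inhibitor, had 37.5 and at most 0.866. In overexpression against 5NC the log2 fold change of Crisp1 was -9.61 ± 1.85 (SE, edgeR adjusted p = 0.0668). Spint3, another protease inhibitor, was called lower at -3.51 ± 0.52 with an edgeR adjusted p of 0.0206.

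The whole list of epididymal genes outside the family had 26 genes, of which 14 were tested. Of these, 1 passed as lower in overexpression against 5NC and 10 had an unadjusted p under 0.05, as had 11.91% of all tested genes, with a median log2 fold change of -3.19 against -0.01 over all genes. In knockdown against 3NC none passed, 5 had an unadjusted p under 0.05, as had 5.64% of all tested genes, and the median was -1.20 against -0.02. In 5NC against 3NC none passed, 3 had an unadjusted p under 0.05, as had 10.76%, and the median was 1.15 against -0.02. Low genes of the list such as Rnase12 and Bsph2 could pass the filter through the libraries in which they are high, so these counts do not stand for the list. The summed CPM of the list was 351.7 to 354.7 in 3NC, 282.1 to 328.6 in the knockdown group, 311.5 to 646.3 in 5NC and 275.3 to 307.2 in the overexpression group, and in each library other than 5NC replicate 2 most of it came from Cst8, Aqp9 and Cst12, which stayed at 131.4 to 177.3, 64.0 to 101.7 and 46.8 to 69.4 CPM in every library. Of the defining epididymal genes, Lcn8 was at 0 in every library, Lcn5 had CPM of 0.132 in 1 library and 0 in the others, and Gpx5 was at most 0.135. Rnase10 went the other way, at 0.0704 CPM in 5NC replicate 2 and 2.61 to 6.61 in the others. Whether epididymal tissue was carried over into some libraries at dissection, and its part in the beta-defensin values of 5NC replicates 2 and 3 and of 3NC, was not tested. In bulk tissue fewer cells of a type and less RNA per cell cannot be told apart.

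**Figure D5:**
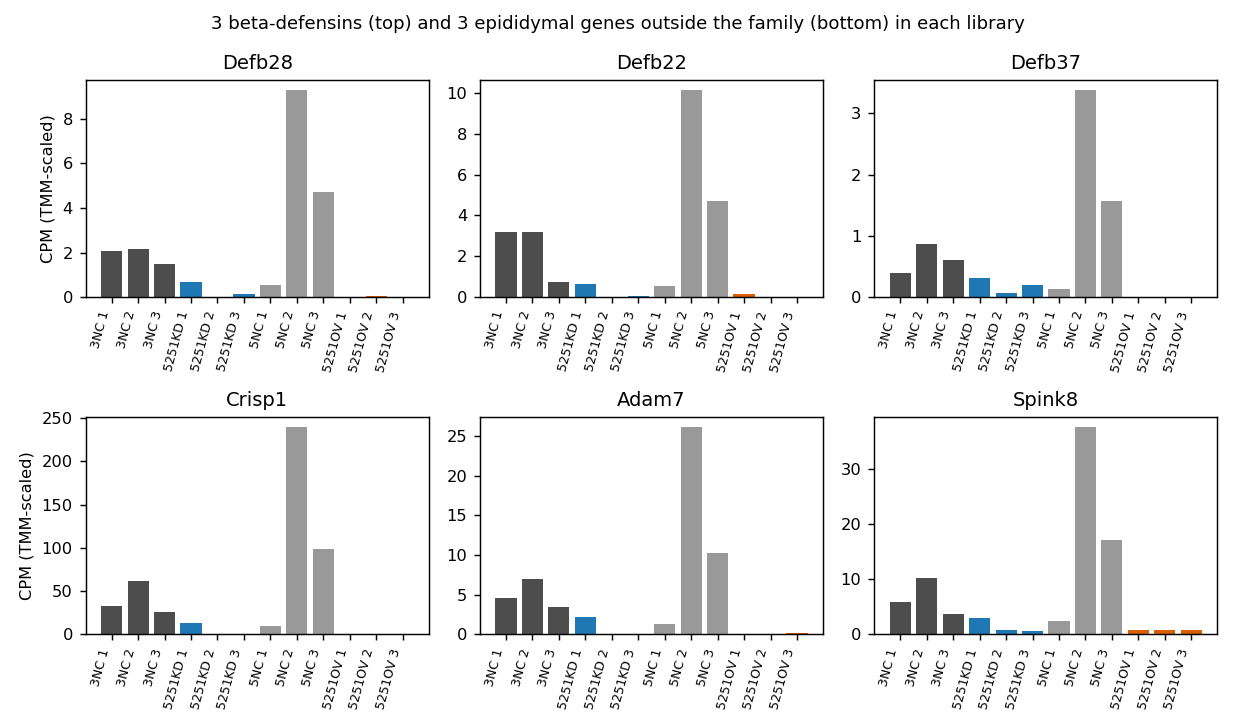
CPM (TMM-scaled, bars from 0) in each of 12 libraries for Defb28, Defb22 and Defb37 (top) and for Crisp1, Adam7 and Spink8 (bottom), which are epididymal genes outside the family. All 6 are highest in 5NC replicate 2, second highest in 5NC replicate 3 and low in the overexpression group, where Crisp1 is at most 0.197 and Spink8 at most 0.866 CPM.

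Markers of testis cells were present in every library. The summed CPM of Sertoli genes was 878.5 to 1140, of Leydig genes 972.0 to 2000, of spermatocyte genes 1013 to 1378 and of spermatid genes 12363 to 17491. The most abundant genes were Clu, Amhr2 and Cldn11 for Sertoli cells, Insl3, Cyp17a1 and Cyp11a1 for Leydig cells and Prm2, Prm1 and Tnp2 for spermatids. No Sertoli, Leydig or spermatid gene passed in any of the 3 comparisons. In knockdown against 3NC, 3 of 7 Leydig genes (Lhcgr, Star and Cyp17a1) had an unadjusted p under 0.05 by edgeR, as had 5.64% of all genes, with a median log2 fold change over the list of -0.66 against -0.02 over all genes, and the part of this in the knockdown values of the beta-defensins was not tested. In overexpression against 5NC, 3 of 8 spermatid genes had an unadjusted p under 0.05, as had 11.91% of all genes, with a list median of 0.18. Spo11 of the spermatocyte list passed as lower in overexpression against 5NC. Genes of macrophages and white blood cells, led by Mrc1, Lyz2 and Csf1r, summed to 375.1 CPM in 3NC replicate 2 and 360.0 in knockdown replicate 1 but 83.1 to 102.7 in the other 10 libraries, and no gene of this list passed. In 5NC against 3NC, 2 of its 8 genes had an unadjusted p under 0.05, as had 10.76% of all genes, with a list median of -1.25. Without both of those libraries the log2 fold changes of Defb22 and Defb28 in knockdown against 3NC were -5.55 and -4.56. They were -5.82 and -4.66 without knockdown replicate 1 alone, and -3.00 and -2.62 without 3NC replicate 2 alone. Of the 5 blood genes tested, Hbb-bs and Hbb-bt, globin genes similar enough to share reads, passed as higher in overexpression against 5NC and as lower in 5NC against 3NC. Depth was 12719699 to 15771655 estimated reads per library.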

How the data were processed

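RNA-seq was made by the study from F1 mouse testes, and 12 libraries in 4 groups were used. Groups and replicate numbers came from the sample titles. Per the study's methods, the authors aligned reads with SOAPaligner to mouse genes, and the labels name build mm10. The authors deposited estimated counts per gene, unscaled, and RPKM values. The authors called genes with DEGseq, a test on reads that leaves out replicate spread. Another 18 per-sample columns belong to other groups and were not used here. The sources used here do not say whether strand was used in counting.

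Members are the rows named Defb plus a number. All 33 matched RefSeq by gene ID, and 43 RefSeq genes have such names; the rest were not analysed here. Estimated counts were rounded, filtered with filterByExpr (16388 genes left), scaled by TMM and fitted with edgeR 4.0.16 in R 4.3.3 (glmQLFit, glmQLFTest, Benjamini-Hochberg adjustment, threshold 0.05, group as the only term). CPM values are scaled by TMM. Alternatives used DESeq2 1.42.0 and limma 3.58.1. The scripts were tested on simulated data. Ratios of summed reads have exact binomial 95% intervals, which leave out the spread among the libraries of a group.

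The members, gene lists, tests and motifs were chosen with earlier results of these data known. Named genes were every detected member, the 3 tested members of smallest p per comparison, the 5 genes most correlated with the most abundant member, and list genes that passed; where none passed, the list summary and the 3 most abundant genes stand. Crisp1, Adam7, Spink8, Lcn5, Lcn8, Gpx5, Rnase10, Rnase12, Bsph2, Cst8, Aqp9, Cst12, Lhcgr, Star, S100a8, S100a9, Wfdc13, Wfdc15b, Wfdc16 and the undetected members were named after their values were seen.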

Additional observations from a re-analysis of the deposited data

Results flagged for a closer look

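Defb23 was the only detected member for which the knockdown libraries all lay on one side of their control mean and the overexpression libraries all lay on the other side. Its mean CPM in the knockdown group minus that in 3NC was -0.301, on 5 against 19 reads, and it had 13 reads in overexpression against 10 in 5NC. Defb23 had too few reads for the main count test, and the fits that included it did not call the difference between these effects. The knockdown effect minus the overexpression effect was -2.26 ± 1.10 (SE) on the log2 scale in edgeR without the filter on low counts (adjusted p = 0.9999, unadjusted p = 0.0626), and limma-trend on log2(RPKM + 0.1) gave -2.05 ± 0.92 (adjusted p = 0.922, unadjusted p = 0.0481).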

How the results depend on the processing

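The count of members called stayed at 0 in most alternatives. For overexpression against 5NC it was 3 with DESeq2, 2 with limma-trend on log2(RPKM + 0.1) (Defb37 and Defb43, among 82 of 15546 genes, and none of 28 members without its filter, at a lowest adjusted p of 0.0514), 5 with counting error only, and 0 to 4 when each library was left out, the 4 coming without 5NC replicate 1. The counting-error test also gave 5 members for knockdown against 3NC and 4 for 5NC against 3NC, but it called 7458 to 7870 of 16388 genes. Leaving out single libraries kept the other comparisons at 0. The count detected was 18, with 25 at an RPKM of 0.1, 14 at 1, 10 with at least 10 reads in 3 libraries, and 17 to 18 with each library left out. Leaving out 5NC replicates 2 and 3 together, or 3NC replicate 2 with knockdown replicate 1, was chosen after seeing the data. No member was called in either, the former leaving 1 library of 5NC whose spread is assumed, and 17 were detected without the former. Without knockdown replicate 1, the difference of effects was 2.59 for Defb28 and 0.72 for Defb22. It was 6.45 for Defb28 without overexpression replicate 2 and 5.98 for Defb22 without overexpression replicate 1. Each of these 2 values compares with an overexpression group at 0 reads, so it depends on the prior count.

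Fold changes were reversed in 7 cases. For 5NC against 3NC without 5NC replicates 2 and 3, they were -2.26 for Defb37, -1.75 for Defb28, -2.07 for Defb22 and -0.0486 for Defb19. With single libraries left out, Defb19 went from -0.0219 to 0.217 in that comparison, below 0 without 3NC replicate 1 or 5NC replicate 2, and from -0.201 to 0.0377 in knockdown against 3NC, above 0 without 3NC replicate 3. The cause was not tested. Over all genes, 51 were called in overexpression against 5NC, 328 with DESeq2 and 107 with only the 6 libraries compared, a fit in which Defb28, Defb22 and Defb37 did not pass the filter, so that its 0 members called, of 7, says nothing about them. For 5NC against 3NC, 21 genes were called, 171 with DESeq2 and 33 with total counts. For the difference of effects, 4 were called and 42 with DESeq2, and for knockdown against 3NC 0 and 16.

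Deviations from the group means had r from -0.64 to 0.39 between libraries with the same replicate number, and the main fit did not pair them. With 3 libraries per group this cannot exclude a pairing. With a replicate block, the count of members called was 0 in each comparison, and over all genes 21 were called in overexpression against 5NC and 5 in 5NC against 3NC. Members with few reads have wide counting intervals.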

Other observations

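The list of 30 other antimicrobial genes, led by Lcn2, Wfdc15a and Bpi, had 18 tested, and none passed in knockdown against 3NC, overexpression against 5NC or 5NC against 3NC by edgeR's quasi-likelihood test, with 3, 5 and 4 genes at an unadjusted p under 0.05, where 5.64%, 11.91% and 10.76% of all tested genes were. Some of its genes were named after their values were seen. Wfdc13, of the whey acidic protein family of protease inhibitors, had 21.7 CPM in 5NC replicate 2, 10.5 in replicate 3, 1.37 in replicate 1 and at most 0.238 in the overexpression group, and its log2 fold change was -7.14 (edgeR adjusted p = 0.0920). Wfdc16 and Wfdc15b had 19.5 and 8.30 CPM in 5NC replicate 2, and at most 0.333 and 0 in the overexpression group. S100a8 and S100a9, proteins of neutrophils, had log2 fold changes of 3.38 and 3.91 in overexpression against 5NC (edgeR adjusted p = 0.444 and 0.428), with most of their overexpression reads in replicate 1, at 6.12 and 6.71 CPM. The median log2 fold change of the list was -0.06 in that comparison, against -0.01 over all genes.

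Receptors and signals that act with defensins, led by Rela, Myd88 and Nfkb1, had 22 genes, of which 20 were tested, and none passed in any of those comparisons, with 1 gene at an unadjusted p under 0.05 in each, read against the same shares of all genes. Their summed CPM was 306.0 in 3NC replicate 2 and 303.9 in knockdown replicate 1, and 115.9 to 145.0 in the other libraries. The median log2 fold changes were 0.13 in knockdown against 3NC, 0.02 in overexpression against 5NC and -0.33 in 5NC against 3NC.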
